A study of Rattus norvegicus with 4 samples.

Results

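The genes described here are those of the cytosolic ribosomal proteins, measured in 4 cultures of NR8383, a macrophage line that was started from cells washed out of the lung of a normal rat. All 4 cultures had been exposed for 4 h to Fe2O3 (NRCWE018), a particle given at 2 µg/mL, the cells were described after 20 passages, and flasks had been seeded 48 h before treatment. They are labelled as biological replicates 1 to 4 of 1 group, each with 1 single-colour array, and the unexposed cultures of the study are not analysed here, so no value below is an effect of the particles. Genes were taken where a RefSeq accession on a probe led to a rat symbol of the pattern Rps, Rpl or Rplp followed by a number and at most 1 letter, which found 76 of 16581 named genes and 185 of 21109 named probes. Of the 76 genes, 30 belong to the small subunit, 43 to the large subunit outside its stalk, and 3 to the stalk. The pattern was meant to leave out the -like paralogues, but it let in Rpl3l and Rps27l because their symbols end in 1 letter. A list of 79 standard ribosomal protein genes had 74 entries among the 76 genes. Rpsa and Fau are among the ribosomal protein genes whose symbols lie outside the pattern, and Rps9 and Rpl37 had no matched probe.

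The cytosolic ribosome is built from a small subunit, which reads the messenger RNA, and a large subunit, which joins the amino acids, each made of ribosomal RNA and a set of ribosomal proteins present in about equal copy number. The messenger RNAs of most mammalian ribosomal proteins begin with a run of pyrimidines directly at the cap, the 5′ terminal oligopyrimidine (TOP) motif, through which the mTOR pathway and the RNA-binding protein LARP1 control their translation as a group. A protein translated from these messages enters the nucleolus, is built into a pre-ribosomal particle, and is degraded if it finds no partner, so that messenger RNA levels are only 1 of the steps that set the amount of ribosomal protein.

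A pyrimidine run at the transcription start was the most frequent in these genes of the 5 promoter features searched. RefSeq's table of windows around gene starts (build GRCr8) held a window for 61 of the 76 genes, 62 windows in all, each with 250 bases before the start and 50 after. A run of at least 8 pyrimidines (C or T) on the sense strand touched the 11 bases centred on the start in 37 of 62 windows (59.7%), against 9.06% of all 33469 windows in the table and 8.60% of the windows of named genes above background on all 4 arrays. The longest such run had a median length of 9.5 bases in the ribosomal protein windows and 3 in all windows. A C at the start itself followed by at least 4 pyrimidines, a rule added after the first count was seen, was present in 23 windows (37.1%) against 2.63% of all windows.

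The next 6 sequences show the feature at genes of the stalk, the small subunit and the large subunit. Each holds 80 bases before the annotated start and the 20 bases from it, 5′ to 3′, with the pyrimidine run in capitals. The coordinates are Rplp0 at chr12:46718371-46718470 on the minus strand, Rplp1 at chr8:71290853-71290952 on the minus strand, Rps23 at chr2:23814437-23814536 on the plus strand, Rps24 at chr16:96437-96536 on the plus strand, Rpl9 at chr14:43247510-43247609 on the plus strand and Rps27 at chr2:177964587-177964686 on the minus strand.
Rplp0: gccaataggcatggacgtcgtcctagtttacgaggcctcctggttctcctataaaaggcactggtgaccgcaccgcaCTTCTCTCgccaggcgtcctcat
Rplp1: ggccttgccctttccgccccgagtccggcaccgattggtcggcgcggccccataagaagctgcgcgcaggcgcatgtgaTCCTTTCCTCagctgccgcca
Rps23: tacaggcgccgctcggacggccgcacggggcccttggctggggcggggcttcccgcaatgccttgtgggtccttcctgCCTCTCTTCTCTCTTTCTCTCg
Rps24: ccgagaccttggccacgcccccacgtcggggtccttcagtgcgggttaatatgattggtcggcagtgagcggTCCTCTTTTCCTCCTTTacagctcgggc
Rpl9: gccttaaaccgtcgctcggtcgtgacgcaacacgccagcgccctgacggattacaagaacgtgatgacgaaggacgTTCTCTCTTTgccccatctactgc
Rps27: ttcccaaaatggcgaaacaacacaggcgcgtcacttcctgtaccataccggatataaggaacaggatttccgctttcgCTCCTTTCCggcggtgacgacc

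In Rps23 the run was 21 bases long, the longest of the 62 windows, and began 2 bases before the annotated start. It was 17 bases in Rps24, 10 in Rplp1 and Rpl9, 9 in Rps27 and 8 in Rplp0. The next 4 windows, of the same size, had no run of 8 at the start and therefore carry no capitals. They are shown because Rpl39 was the gene that varied most between the cultures, because Rps27l and Rpl3l are the paralogues of Rps27 and Rpl3, and because Rpl3 itself had a run of 5. The coordinates are Rpl39 at chrX:121195877-121195976 on the minus strand, Rps27l at chr8:76443578-76443677 on the plus strand, Rpl3 at chr7:113507971-113508070 on the minus strand and Rpl3l at chr10:14258366-14258465 on the plus strand.
Rpl39: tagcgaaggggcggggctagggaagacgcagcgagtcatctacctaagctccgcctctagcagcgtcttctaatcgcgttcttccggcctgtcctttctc
Rps27l: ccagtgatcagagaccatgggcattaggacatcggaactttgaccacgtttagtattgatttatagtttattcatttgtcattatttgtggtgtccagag
Rpl3: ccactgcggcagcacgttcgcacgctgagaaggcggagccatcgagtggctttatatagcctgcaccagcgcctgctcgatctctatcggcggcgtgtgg
Rpl3l: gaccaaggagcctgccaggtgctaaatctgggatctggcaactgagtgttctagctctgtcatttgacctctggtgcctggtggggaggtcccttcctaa

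Rpl39 had a run of 7 pyrimidines at the start, 1 short of the minimum. In both paralogues the longest run touching the 11 bases centred on the start was 3. Longer runs away from the start, such as the one near the end of the Rpl3l sequence, were not counted. The other 3 motifs were searched on both strands of the whole window, each allowed to overlap any other. The ETS core CCGGAAG was in 19 windows (30.6%), against 8.75% of all windows and 20.4% of those of named genes above background. The YY1 core AAGATGG was in 9 windows (14.5%), against 7.01% of all windows and 8.65% of those above background. TATAAA was in 7 windows (11.3%), against 14.2% of all windows and 7.32% of those above background. A match describes the letters only and does not show that a factor binds there.

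Ribosomal protein genes also carry small nucleolar RNAs (snoRNAs), the guides of ribosomal RNA modification, inside their introns. In the RefSeq gene table, 28 of the 76 genes (36.8%) contained at least 1 of 55 snoRNA genes within their span, on either strand, against 183 of the other 8300 named genes above background on all arrays (2.20%). Rpl4, a protein of the exit tunnel, held 5, and Rpl13a and Rpl7a held 4 each.

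Signals are given as log2 of the scanner's processed signal relative to the 75th percentile of the same array, so that 0 marks that percentile. The 75th percentile was 1072, 984.3, 1082 and 756.5 on replicates 1 to 4, the median local background lay between 41 and 46, and 37.8% to 41.2% of probes were well above background. No spot was saturated. The macrophage label was checked against markers: 13 of 17 macrophage markers exceeded background on every array, including Cd68, Csf1r, Lyz2, Spi1 and Ptprc, while Marco, Adgre1 and Cd163 were above background on none. Of 8 lung epithelium markers 0 were above background, as were 0 of 5 markers of lymphoid cells and 0 of 2 of erythroid cells. S100a8 alone of 5 granulocyte and mast cell markers was above background, as were Pecam1, Cdh5 and Vwf of 8 markers of endothelium and fibroblasts. The scan names place all 4 arrays on 1 slide, so an effect of the place on the slide and one of the culture cannot be told apart. With 4 arrays, their number limits how precise each value is.

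All 76 ribosomal protein genes were above background on all 4 arrays, where 50.5% of all named genes were. A probe counted as above background when most of its spots carried the scanner's mark for it, and each gene took its value from the probe so marked on the largest number of arrays, or the brighter one of equals. The signal of 75 of the 76 genes also exceeded the array's 75th percentile on every array, as did that of 41.4% of the 8376 named genes above background. Rpl3l was the exception. The levels span from -3.83 for Rpl3l to 8.57 for Rpl41 as means over 4 arrays, with a median of 6.90, but probes differ in how strongly they bind, so the order of genes on this scale is not an order of transcript amounts.

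**Figure D1:**
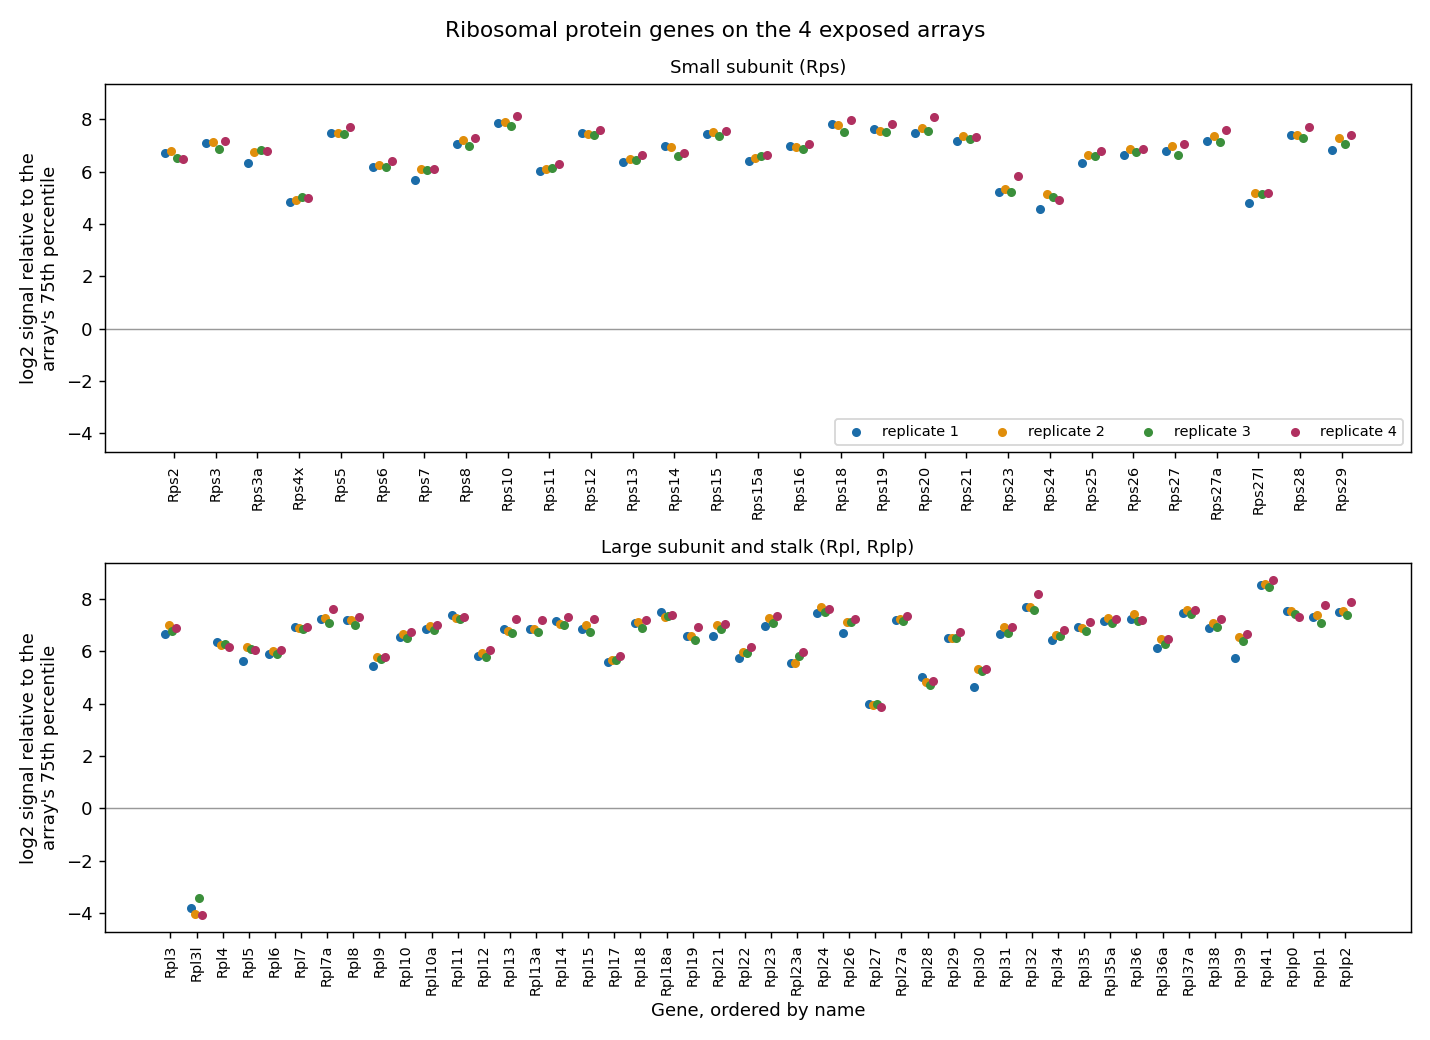
Signal on the log2 scale, set against the 75th percentile of its array (vertical axis), for 75 of the 76 genes (horizontal axis, by name), with small subunit genes in the upper panel and large subunit and stalk genes in the lower panel; each point is 1 exposed culture and the grey line at 0 is the 75th percentile. 1 gene is not shown. Of the plotted genes, Rpl3l lies below the line and the others above it on all 4 arrays, and replicate 1 lies apart at the bottom for genes such as Rpl39, Rpl30, Rps7 and Rps3a.

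The stalk proteins form the flexible arm of the large subunit that recruits elongation factors. Rplp0, the base of the stalk, was at 7.54, 7.55, 7.44 and 7.31 in replicates 1 to 4, 7.46 ± 0.11 (SD, n = 4). Rplp1, one of the paired acidic proteins on that base, was at 7.30, 7.37, 7.09 and 7.76. Rplp2, its partner, was at 7.49, 7.54, 7.38 and 7.90. Replicate 3 was lowest and replicate 4 highest for Rplp1 and Rplp2, whereas replicate 4 was lowest for Rplp0. The other probe of Rplp2 gave 6.15, 5.91, 6.03 and 6.18, with replicate 2 lowest, so the order of the cultures depended on the probe.

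In the small subunit, Rps3, a protein of the mRNA entry channel, was at 7.10, 7.14, 6.85 and 7.15, 7.06 ± 0.14 (SD, n = 4). Replicates 1, 2 and 4 lay close together and replicate 3 below them. Rps6, the protein phosphorylated by the S6 kinases downstream of mTOR, was at 6.17, 6.27, 6.18 and 6.40. Rps27a, which is made as a fusion with ubiquitin, was at 7.18, 7.37, 7.12 and 7.60. Both were highest in replicate 4, and Rps6 had its lowest value in replicate 1 and Rps27a in replicate 3. Rps19, the gene most often mutated in Diamond-Blackfan anaemia, was at 7.61, 7.55, 7.51 and 7.80. Rps14, a protein of the small subunit's platform, was at 6.97, 6.94, 6.61 and 6.71. Rps14 ran against most of its family, with replicates 1 and 2 above replicates 3 and 4 in all 3 of its probes. Rps27, a zinc-binding protein of the small subunit, was at 6.78, 6.97, 6.62 and 7.04, lowest in replicate 3.

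In the large subunit, Rpl3, a protein near the peptidyl transferase centre, was at 6.65, 6.99, 6.79 and 6.87. Rpl5 and Rpl11 form a particle with 5S ribosomal RNA that binds MDM2 and so links ribosome assembly to p53. Rpl5 was at 5.63, 6.17, 6.07 and 6.06, with replicate 1 apart below the other cultures. Rpl11 was at 7.38, 7.29, 7.21 and 7.29, highest in replicate 1. The other probe of Rpl11 was at 5.80, 5.82, 5.72 and 5.84, highest in replicate 4, so the place of replicate 1 depended on the probe. Rpl10, among the last proteins to join the subunit, was at 6.55, 6.65, 6.51 and 6.75, highest in replicate 4. Rpl13a, which in myeloid cells can also leave the ribosome to silence inflammatory messages, was at 6.86, 6.85, 6.74 and 7.18, again highest in replicate 4. Another probe of Rpl13a, at 5.11, 5.13, 5.01 and 4.84, was lowest in replicate 4. The remaining probes of the gene were highest in replicate 4, so the place of that culture depended on the probe. Rpl41, the smallest ribosomal protein, was at 8.51, 8.57, 8.46 and 8.72. Its spots were the brightest non-control spots on every array, at a processed signal of 318369 to 391387 against a saturation value of 779367.

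The paralogues were measured at very different distances from background. Rpl3l, a version of Rpl3 known from heart and skeletal muscle, was at -3.82, -4.02, -3.42 and -4.08, with replicate 3 highest and a processed signal of 76.1 on replicate 1. Rps27l, a p53-inducible version of Rps27, was at 4.82, 5.16, 5.15 and 5.19, with replicate 1 below the other cultures. Rpl22l1, a version of Rpl22 outside the pattern, was at 0.88, 1.48, 1.68 and 1.53, again with replicate 1 lowest. Rpl10l, Rpl39l, Rpl7l1, Rpl26l1, Rpl36al and Rps10l1 had no matched probe. Rpsa and Fau have symbols that fall outside the pattern. Rpsa, a small subunit protein also described as a laminin receptor, was at 6.97, 7.004, 6.98 and 7.12. Fau, which encodes a ubiquitin-like protein fused to the small subunit protein S30, was at 6.25, 6.29, 6.17 and 6.46. Both were highest in replicate 4.

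With 1 group, the test that the design allows across genes is whether a gene varied more between the 4 cultures than genes of its level did. It was made with limma, as an F test of each gene's variance against a prior variance that follows the level, with Benjamini-Hochberg adjustment over the 8376 named genes above background on all arrays. None of the 76 genes (0) passed an adjusted p of 0.05, where 16 of 8376 genes did (0.191%). At an unadjusted p of 0.05, 4 of the 76 genes passed (5.26%), against 5.75% of all 8376 genes, a share near the background. They were Rpl39 (limma p 0.006, adjusted 0.359), Rpl30 (p 0.023, adjusted 0.659), Rps23 (p 0.037, adjusted 0.80) and Rplp1 (p 0.048, adjusted 0.860). When no filter for background was applied, Rpl39 alone passed, with an adjusted p of 0.00166 over 16581 genes, of which 370 (2.23%) passed. Under the other alternatives, none of the genes passed and the lowest adjusted p of any of them lay between 0.115 and 0.982. These p-values set a gene's variance over 4 arrays on 1 slide against the prior variance at its level. With 1 array per culture, the gene's variance also includes labelling and hybridisation.

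The 5 genes of largest SD were Rpl39 (0.41), Rpl30 (0.33), Rpl3l (0.30), Rps23 (0.30) and Rplp1 (0.28). Rpl39, a small protein of the exit tunnel, was at 5.74, 6.53, 6.41 and 6.65, with replicate 1 far below the other cultures. Rpl30, a protein at the interface of the subunits, was at 4.65, 5.31, 5.26 and 5.33 and showed the same order. Rps23, a protein of the decoding centre, was at 5.23, 5.34, 5.20 and 5.84, with replicate 4 above the other cultures. Among the genes of smallest SD were Rpl7 (0.04), Rpl27 (0.05), Rpl11 (0.07) and Rps4x (0.07). Rpl7, a large subunit protein, was at 6.94, 6.89, 6.85 and 6.91. Rpl27, a large subunit protein, was at 3.97, 3.95, 4.00 and 3.88. The cultures lay close together for both on these probes, but the 5 other probes of Rpl7 had SDs of 0.07 to 0.15. Rps4x, the X-linked form of a small subunit protein, was at 4.85, 4.90, 5.01 and 4.97. For this gene too no culture stood apart.

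Across the family, the median SD was 0.14, against 0.13 for the 559 named genes whose mean level lay in the range of the 75 genes other than Rpl3l (3.95 to 8.57) and 0.18 for all 8376 genes. The 559 genes of like level include those 75. The median level of the 559 was 4.97, against 6.90 for the 76 genes, so they match the family in range only. The SD exceeded the median of genes of like level in 41 of the 76 genes.

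**Figure D2:**
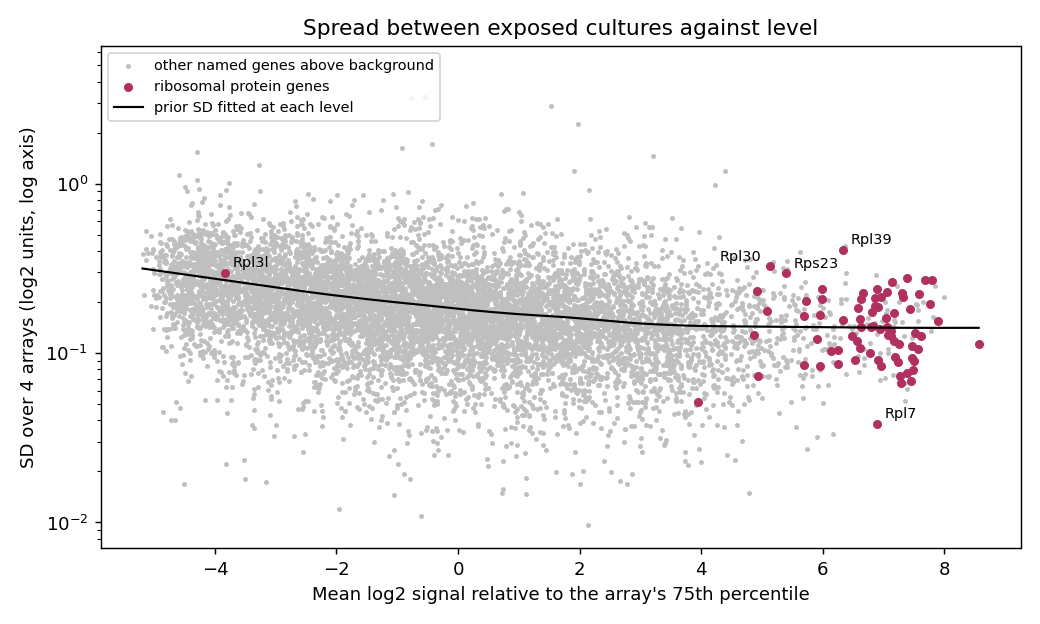
SD over the 4 exposed cultures in log2 units (vertical log axis) against the mean level on the scale of the array's 75th percentile, in log2 units (horizontal axis), for named genes above background on all arrays; grey points are other genes, coloured points the 76 ribosomal protein genes, and the line is limma's prior SD. The ribosomal protein genes scatter around the line on both sides, from 0.04 for Rpl7 to 0.41 for Rpl39.

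The mean of the family differed between arrays. Averaged over the genes, the deviation from each gene's own mean was -0.10, 0.03, -0.07 and 0.14 for replicates 1 to 4, which spans 0.24. Replicate 4 was highest for 54 of the 76 genes (71.1%), against 54.2% of genes of like level. It exceeded replicate 3 in 67 genes (88.2%, against 83.2% of genes of like level) and replicate 1 in 65 (85.5%, against 75.5%). Genes of like level had mean deviations of -0.03, 0.03, -0.09 and 0.10, which likewise placed replicate 4 highest and replicates 1 and 3 below 0 and spans 0.19. Over all 8376 genes above background the same quantity spans 0.08. Replicate 1 was the array on which the family lay further down than genes of like level: it was lowest for 31 of 76 genes (40.8%) against 27.2% of genes of like level, and highest for 6 (7.89%) against 14.7%. Replicate 3 was lowest for 38 of the 76 genes (50.0%) against 54.7% of genes of like level. Replicate 2 was lowest for 2 genes (2.63%) and highest for 12 (15.8%), against 10.0% and 25.4% of genes of like level. Replicate 3 was highest for 4 genes (5.26%), against 5.72%, and replicate 4 lowest for 5 (6.58%), against 8.05%. Genes of like level had a lower median level than the family (4.97 against 6.90). Whether the differences between the family and these genes follow from level was not tested.

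The sign of the mean deviation depended on the scaling for replicates 2, 3 and 4, and stayed negative for replicate 1. Replicate 4 stood at 0.14 as reported, at 0.09 with the percentile taken over probes above background, at 0.03 after cyclic loess and at -0.01 after quantile normalization. Replicate 3 stood at -0.07 as reported and at 0.05 after either cyclic loess or quantile normalization. Replicate 2 stood at 0.03 as reported and at -0.0044 after cyclic loess. Replicate 1 lay between -0.10 and -0.05 under these scalings. After quantile normalization, replicate 4 was highest for 17 of the 76 genes and replicate 3 for 30, so the places of replicates 2 to 4 given for single genes hold on the scale of the 75th percentile. The mean deviation of small subunit genes minus that of large subunit and stalk genes was -0.01, 0.01, -0.01 and 0.01 for replicates 1 to 4, which spans 0.02. After normexp correction it spans 0.07. The summed relative signal of the 17 macrophage markers ranged from 192.1 to 227.6 over the arrays, highest in replicates 2 and 4. A sum follows the brightest genes. The mean deviation of the 13 macrophage markers above background was 0.11, -0.04, -0.09 and 0.03 in replicates 1 to 4, highest in replicate 1. The summed signal of the 8 endothelium and fibroblast markers ranged from 4.64 to 6.65, lowest in replicate 1 and highest in replicate 4. That of the 8 lung epithelium markers ranged from 0.06 to 0.08. The part of these markers in the deviations of the family was not tested.

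**Figure D3:**
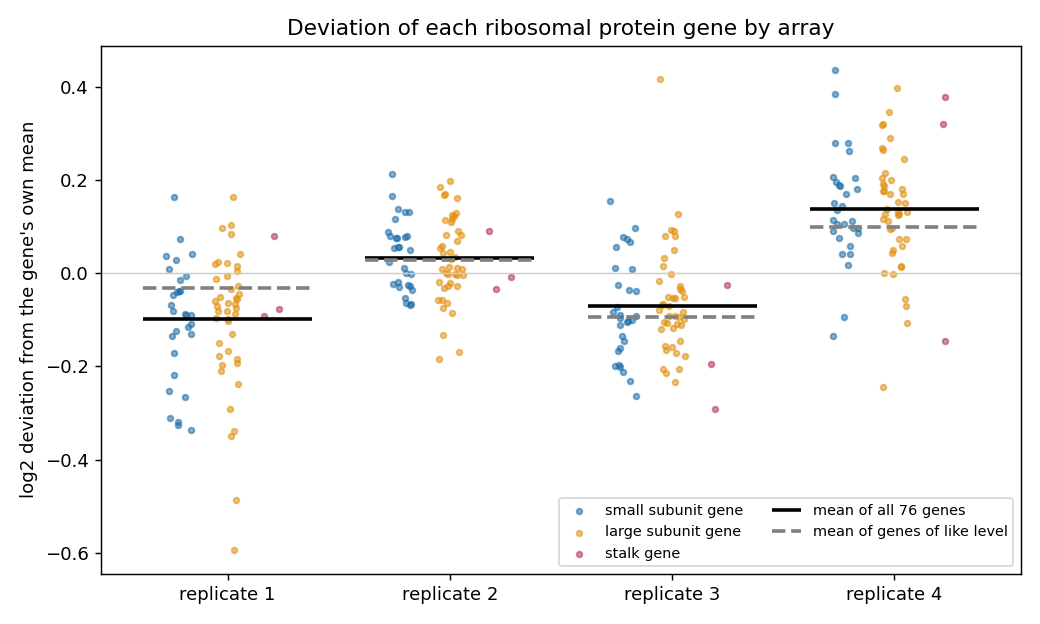
Log2 deviation of each of the 76 genes from its own mean over the 4 arrays (vertical axis) by exposed culture (horizontal axis), in points for small subunit, large subunit and stalk genes; the black line is the mean of the 76 genes and the dashed grey line that of genes of like level. The black line lies at -0.10, 0.03, -0.07 and 0.14, furthest below the grey line in replicate 1, where a tail of genes reaches below the others; the mean of replicate 3 is 0.05 under cyclic loess or quantile normalization, and that of replicate 4 is -0.01 under the latter.

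The lower position of replicate 1 was uneven across the genes. In 12 of the 76 genes (15.8%) replicate 1 lay at least 0.3 below the mean of the other cultures, against 6.44% of the 559 genes of like level. In 0 of the 76 genes did it lie as far above. The share of genes of like level with replicate 1 as far above was not computed, so the 0 does not compare the family with other genes. The limit of 0.3 was chosen after the values had been seen, so the count is a description without a test. After Rpl39 (-0.79) and Rpl30 (-0.65) came Rpl5 (-0.46), Rpl26 (-0.45), Rps3a (-0.45), Rps24 (-0.43), Rps29 (-0.43), Rps7 (-0.41), Rpl21 (-0.39), Rps27l (-0.35), Rps25 (-0.34) and Rpl9 (-0.32). They belong to both subunits, 6 to the small and 6 to the large. Just outside the limit lay Rps20 (-0.29) and Rpl22 (-0.28).

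Rpl26, which also binds the messenger RNA of p53, was at 6.72, 7.14, 7.13 and 7.23. Rps7, a small subunit protein that can bind MDM2, was at 5.67, 6.11, 6.05 and 6.10. Rps24, a small subunit protein mutated in some cases of Diamond-Blackfan anaemia, was at 4.59, 5.13, 5.01 and 4.93. Replicate 1 lay below the other 3 cultures in each of these genes. On the other probe of Rpl26, at 6.49, 6.91, 6.98 and 7.33, it was lowest too, but the other cultures lay further apart. Rps3a, a small subunit protein, was at 6.33, 6.75, 6.82 and 6.77. Rps29, a small zinc-binding protein, was at 6.82, 7.27, 7.04 and 7.41, with a wider spread among the other cultures. In both, replicate 1 was again lowest. Rpl21, a large subunit protein, was at 6.57, 6.99, 6.85 and 7.05. Rpl9, a large subunit protein near the stalk, was at 5.45, 5.80, 5.70 and 5.80. Rps25, a small subunit protein, was at 6.33, 6.64, 6.59 and 6.77. Replicate 1 was the lowest culture for all 3.

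Other probes of the same genes gave the same lowest culture. Of the 12 genes, 8 had further probes above background, 18 in all, and replicate 1 was lowest on 18 of 18, with differences from the mean of the other cultures between -0.79 and -0.17. For the 24 genes of like level outside the family that met the same limit, 6 had further probes, and replicate 1 was lowest on 6 of 9 of these. The 4 probes of Rpl39 gave -0.68, -0.79, -0.79 and -0.79, and the 3 of Rpl30 gave -0.55, -0.59 and -0.65. Under 6 alternatives of scaling, background correction, probe choice and outlier marks, Rpl39 lay between -0.78 and -0.60, Rpl30 between -0.69 and -0.59, Rpl5 between -0.48 and -0.39 and Rpl9 between -0.49 and -0.24. Probes of a gene were hybridised with the same labelled RNA, so they repeat the measurement and not the culture. Rps14 was the reverse case, at 0.22, 0.29 and 0.34 on its 3 probes, and between 0.23 and 0.28 under the 6 alternatives.

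**Figure D4:**
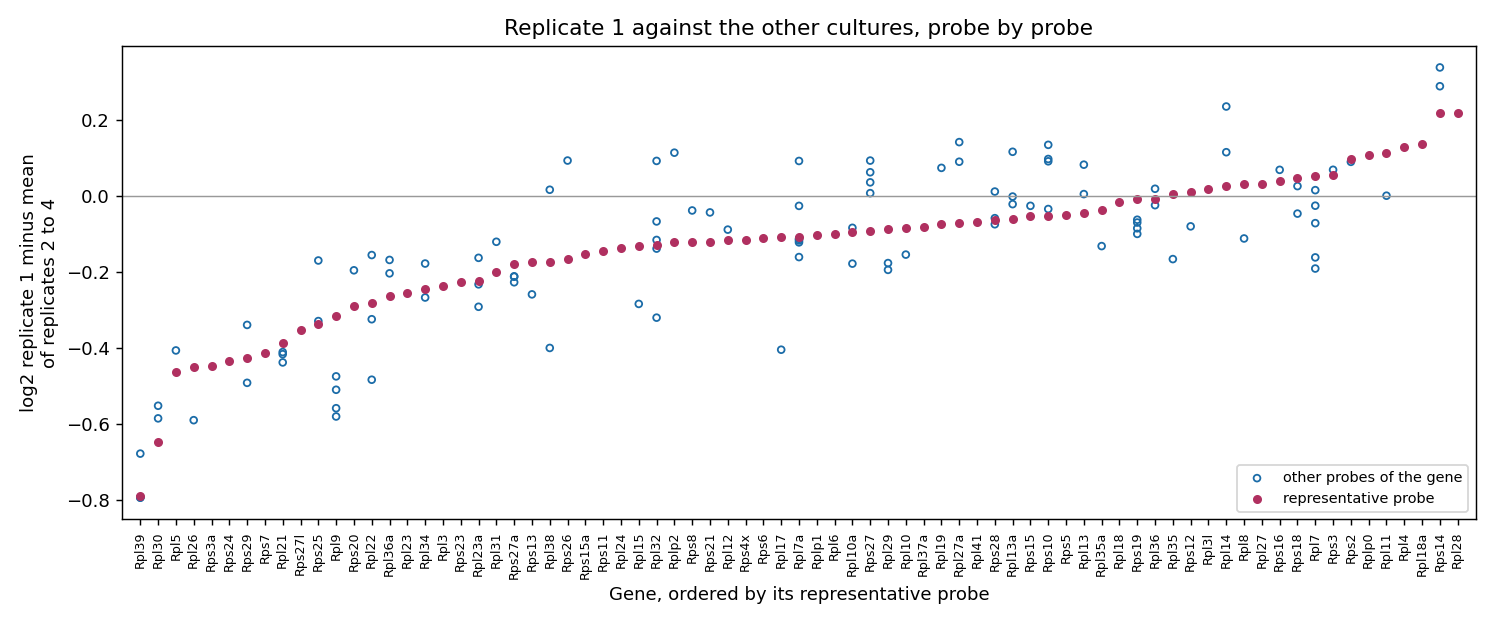
Log2 signal of replicate 1 minus the mean of replicates 2 to 4 (vertical axis) for 75 of the 76 genes (horizontal axis, ordered by the representative probe); filled points are representative probes and open points the other probes above background. Rpl39 lies lowest at -0.79, its 4 probes together, and Rps14 and Rpl28 lie highest at 0.22.

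The start-site run was mixed among these 12 genes, of which 9 had a window. Rpl5, Rpl9, Rps24 and Rps7 had a run of at least 8 and Rpl39, Rps3a, Rpl26, Rps27l and Rpl21 did not. The run was 7 in both Rpl39 and Rps3a. By the added rule, a C at the start followed by at least 4 pyrimidines, Rpl39, Rps3a, Rpl9 and Rps7 had the feature. Rpl5, Rps24, Rpl26, Rps27l and Rpl21 did not meet that rule.

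Where a gene had several probes, they often had the same lowest culture. In 52 genes with at least 2 probes above background, every probe had the same lowest culture in 33 (63.5%, against 49.7% of 1590 named genes) and the same highest culture in 26 (50.0%, against 41.8%). In 15 of the 33 genes the shared lowest culture was replicate 1, against 306 of the 790 named genes whose probes shared a lowest culture. Of the 185 probes, 183 were above background on all arrays and 2 on none. The first was 1 of 2 probes of Rpl28, a large subunit protein, at -6.57, -6.00, -7.79 and -7.24 where the other probe read 5.03, 4.84, 4.72 and 4.86. The other was 1 of 4 probes of Rpl36a, also of the large subunit, at -5.94, -6.57, -7.87 and -7.14 where its representative probe read 6.13, 6.45, 6.27 and 6.45. For both genes the remaining probes were above background on all arrays. Rpl15, among the genes whose probes were all above background, had the widest gap between probes, 8.62. The median gap was 1.21 for the family and 1.81 for all named genes.

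For 64 probes of 43 of the genes, each array carried 10 spots. Their median SD was 0.13 between arrays and 0.06 within an array, against 0.14 and 0.06 for all 616 such named probes. The SD between arrays is that of averages over repeat spots and the SD within an array that of single spots, so they are unlike measures. The spread between arrays includes labelling and hybridisation of each array, which spots within an array share, so the values do not measure the cultures alone. Ribosomal protein genes have many near-identical processed copies in mammalian genomes. The RefSeq gene table listed 872 symbols of such copies, some of them of ribosomal protein genes outside the 76. Of the 76 genes, 74 had copies listed, and 2 of the 872 symbols had a probe of their own. The files used here hold no probe sequences, so how much of a signal comes from a copy was not tested, and all levels above are uncertain in that respect.

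The other genes of ribosome production were taken from lists of known members. Of 20 measured genes that control ribosomal protein synthesis, 20 were above background on all arrays, 0 passed the limma test of spread at an adjusted p of 0.05 and 0 at an unadjusted p of 0.05. Mtor, the kinase that drives translation of TOP messages, was at -2.90, -3.37, -3.30 and -3.14. Rptor, its partner in complex 1, was at 2.20, 1.95, 1.97 and 2.32. Mlst8, another subunit of that complex, was at 0.05, -0.20, -0.32 and 0.06. Replicates 1 and 4 were the higher cultures for all 3. Larp1 had no matched probe.

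Of 34 measured ribosome biogenesis genes, 33 were above background on all arrays and Utp20, a component of the small subunit processome, on none. In the limma test 0 of the 33 passed, at an adjusted or an unadjusted p of 0.05, and the median SD was 0.12. Replicate 1 was lowest for 15 of the 33, against 29.9% of all genes above background. Polr1a, the largest subunit of RNA polymerase I, was at -2.19, -2.47, -2.81 and -2.35. Polr1b, its partner subunit, was at -2.57, -2.48, -2.58 and -2.60, with no culture apart. Ubtf, the polymerase I transcription factor, was at 1.05, 1.21, 1.24 and 1.25, lowest in replicate 1.

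Among 14 measured chaperones and importers of ribosomal proteins, 13 were above background on all arrays and Rrp7a, a processing factor, on none, at -7.70, -7.77, -7.82 and -7.22. Grwd1, a chaperone of Rpl3, passed the limma test of spread (adjusted p 0.001) at -1.19, 2.14, -1.38 and -1.25, a high value in replicate 2 only. Rpl3 itself was at 6.99 in replicate 2, its highest culture, 0.34 above the lowest. Bccip, a chaperone of Rpl23, was at -3.01, -3.57, -2.99 and -3.05. Tsr2, a chaperone of Rps26, was at -2.18, -2.15, -2.39 and -2.08. Replicate 2 was the low culture for Bccip, and for Tsr2 none stood apart.

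The 16 translation factors and other genes known for TOP messages were all measured and above background on all arrays, 0 passed the limma test of spread at an adjusted p of 0.05, and 2 had an unadjusted p under 0.05. Their mean deviation was -0.12, -0.0045, 0.02 and 0.10 in replicates 1 to 4, with replicate 1 lowest for 8 of 16, against 29.9% of all genes above background. Eef1a1, the factor that brings aminoacyl-tRNA to the ribosome, was at 6.65, 6.75, 6.81 and 6.92. Eef1b2 and Eef1d are subunits of its exchange factor. Eef1b2 was at 5.87, 5.88, 5.90 and 6.01, and Eef1d at 5.95, 6.18, 6.11 and 6.20. Replicate 1 was lowest for all 3. Eif3e, a subunit of initiation factor 3, was at 1.73, 2.52, 2.71 and 2.35 (limma p 0.008, adjusted 0.428). Tpt1, a TOP-message protein, was at 5.97, 6.39, 6.55 and 6.63 (limma p 0.037, adjusted 0.80). They were the 2 genes with the low unadjusted p, and replicate 1 was lowest for both. Rack1, a scaffold on the small subunit, was at 5.10, 5.21, 5.05 and 5.06, with a spread of 0.07.

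Ribosomal RNA, the partner of these proteins, was read by 3 probes that were above background on all arrays. Rn18s, the RNA of the small subunit, was at 3.16, 5.53, 4.03 and 4.22 (limma adjusted p 0.006 for excess spread). Rn5-8s, a RNA of the large subunit, was at 0.48, 3.28, 1.58 and 2.30 (limma adjusted p 0.003). Rn45s, the precursor, was at 7.87, 7.86, 7.51 and 8.12 (limma adjusted p 0.952). Rn18s and Rn5-8s were highest in replicate 2 and lowest in replicate 1, with ranges of more than 2 log2 units, whereas replicate 3 was lowest for Rn45s. The family's mean deviation was 0.03 in replicate 2 and -0.10 in replicate 1, a far smaller difference, and whether the ribosomal RNA signal had a part in it was not tested. Rn28s and Rn5s had no matched probe.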

How the data were processed

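Each spot's intensity was deposited as scanner output: the authors ran Agilent Feature Extraction (version 11.0.1.1, from the submitters' processing notes), which subtracted background and detrended within the array, per the file headers. The marks for well above background, positive and significant, saturated and outlier are other values, 0 or 1, per the file headers. The sources used here do not give how the authors compared arrays.

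Here control spots and marked outlier spots were left out (marked spots stayed where a probe had no other), the 75th percentile of the array was subtracted on the log2 scale, and repeat spots were averaged. Probes were named through the RefSeq gene table (GRCr8). The test of excess spread used limma (3.58.1, under R 4.3.3; intercept fit with 3 degrees of freedom, robust prior variance with a trend) over 8376 genes, adjusted by Benjamini-Hochberg at 0.05. Normexp correction used an offset of 50. The script was tested on simulated data. Counts and figures used Python 3.11.15, pandas 2.3.3, numpy 2.4.6 and matplotlib 3.10.9.

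The members, gene lists and limits were chosen with earlier results of these data known. Named genes are the stalk genes, paralogues, genes outside the pattern, a list of 13 ribosomal protein genes with known further roles, the 5 of largest and of smallest SD, genes whose probes disagree on background, ribosomal RNA probes, and the first 3 measured genes of each other list with any that pass the test. The genes low in replicate 1, Rpl4, Rpl7a, Rpl15, Rpl22, Rps20, Tsr2, Eif3e and Tpt1 were named after their values were seen. With 1 group there is no comparison between conditions. Planned protein features (length, charge, identity of paralogues) were not used here. Some values of single genes are not reported here.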

Additional observations from a re-analysis of the deposited data

Results flagged for a closer look

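In 57 sets of 4 values examined, each 1 gene or list, 7 had a culture whose gap to its neighbour exceeded Dixon's critical share of the whole range for 4 samples. Chance flags about 1 in 20 such sets, and genes on the same arrays are not independent. Several of the genes were named because replicate 1 lay low or their SD was large, so the 7 cannot be read against that chance. In Rps3, replicate 3 lay low with a gap of 0.835 of the range. In Rps27l, replicate 1 lay low with a gap of 0.896, and in Rpl30 with a gap of 0.904. Replicate 1 was also the low culture in Rps3a (0.844) and Rps7 (0.855). Of the other genes, Grwd1 was high in replicate 2 (0.944) and Bccip low in replicate 2 (0.882). Over all 76 ribosomal protein genes, 6 (7.89%) met the same limit, against 5.90% of the 559 genes of like level and 5.87% of all 8376 genes above background.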

How the results depend on the processing

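The count of genes above background was 76 under every alternative except the one without the paralogues Rpl3l and Rps27l, which leaves 74. Changes of scaling, background correction or probe averaging, or leaving out an array, could not lower this count, because it rests on the scanner's mark. The count with excess spread was 0 except for 1 gene (Rpl39) with no filter on dim probes, where 370 of all genes passed against 16 as reported. The count over all genes was 157 after normexp correction, 5 when the prior was held constant over levels, 10 when it was not fitted robustly, 25 with outlier-marked spots kept and 7 without replicate 2. The range over arrays of the family's mean deviation was 0.0948 after quantile normalization and 0.122 after cyclic loess, against 0.235. The range of the small minus large subunit difference was 0.0734 after normexp correction and 0.00957 without the paralogues, against 0.0212. The causes were not tested. The median SD lay between 0.0940 and 0.154. Among recomputed mean levels of named genes, 221 moved by less than 1 SD and 65 by more, 26 of them when the percentile used detected probes alone, which puts Rplp0 at 6.22 in place of 7.46. Averaging all probes of a gene takes Rpl28 to -1.02 in place of 4.86 and Rpl36a to 2.93 in place of 6.33, since 1 probe of each was not above background. Replicate 1 was lowest for 27 to 37 of the 76 genes under other scalings and background corrections. The share of genes of like level under those settings was not computed, so these counts do not compare the family with other genes. The difference of replicate 1 from the others kept its sign in the 10 genes followed. The alternatives for the genes low in replicate 1 were chosen after seeing the data. No paired analysis was possible because there is 1 group. Levels near background, such as that of Rpl3l, are limited by the signal over background.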
